A study of Mus musculus with 10 samples.

Results

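The 10 livers of this study fell into 2 sets by the level of Dbp, a transcript of the circadian clock output, and the sets cut across the labelled genotypes. Dbp was expressed as CPM, the gene's count divided by the library's total count and scaled to 1000000 counts. The livers were chosen by this value alone: the 4 under 5 CPM were called low-Dbp and the 6 over 15 CPM high-Dbp, out of 10 in all. The sets were made from a measured gene and not from a label. The time of day at which the livers were taken is not given in the sources used here, so the sets are called by Dbp and not by a clock time.

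The study compared livers of old mice with floxed Arg2 alleles (Arg2fl/fl, called Flox) and of littermates without Arg2 in hepatocytes (Arg2LKO, called LKO). The mice were of the strain C57B/6J as labelled, were 22 months old, were housed together and ate normal chow. The line that drives the hepatocyte deletion and the sex of the mice were not known here. The low-Dbp livers were Flox 1, Flox 2, Flox 3 and LKO column 1. The high-Dbp livers were Flox 4, Flox 5 and LKO columns 2, 3, 4 and 5. LKO libraries are called by their column number, because those numbers match no LKO title. No label says that each library is a separate mouse, so p-values measure only the spread between these libraries.

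The libraries held 43331354 to 54951415 counts, and 21937 to 23811 genes had at least 1 count. Arg2, the targeted gene, had 9 counts over the 5 Flox libraries and 10 over the 5 LKO libraries. With 3 libraries of each genotype at 0 counts, Arg2 gave no check of the labels. The hepatocyte gene Alb, which encodes albumin, was at 35950 to 121100 CPM in all 10 libraries. Flox 2 and Flox 3 stood apart by Saa1 and Saa2, the serum amyloid genes of the acute phase response. These 2 genes took 1.72% of all counts in Flox 2 and 3.43% in Flox 3, against 0.394% in Flox 4 and at most 0.0803% elsewhere. Both libraries are low-Dbp, so several of the results below are also given without them.

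The circadian clock of liver cells is a transcriptional loop. ARNTL (also called BMAL1) pairs with CLOCK or NPAS2 and activates genes through E-box elements, among them the Per and Cry repressors, the nuclear receptors Nr1d1 and Nr1d2, and Dbp. The PER and CRY proteins then inhibit the activators. NR1D1 and NR1D2 repress Arntl, Npas2, Cry1 and Nfil3 through RORE elements, where the ROR receptors activate. DBP, TEF and HLF, the PAR bZIP factors, activate and NFIL3 represses through D-box elements, and Dbp is among the transcripts with the widest daily swing in liver.

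Dbp was at 0.771 CPM in Flox 1, 1.71 in Flox 2, 2 in Flox 3 and 3.01 in LKO column 1. In the high-Dbp livers it was at 33.9 CPM in LKO column 4, 35.3 in LKO column 2, 40.6 in LKO column 3, 49.3 in Flox 4, 93.0 in Flox 5 and 110 in LKO column 5. These CPM rest on 41 to 141 counts in the low-Dbp livers and on 1468 to 5925 in the others. No library lay between 3.01 and 33.9 CPM, the values on either side of the limits. The mean was 32.2-fold higher in the high-Dbp livers. These values chose the sets and are a description.

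Both genotypes were in both sets. Of 5 Flox livers 3 were low-Dbp, and of 5 LKO livers 1 was. Dbp was at 29.4 ± 41.2 CPM (SD, n = 5) in Flox and 44.5 ± 39.4 CPM (SD, n = 5) in LKO. On the scale of log2(CPM + 0.1), LKO exceeded Flox by 2.02, within a wide spread in both genotypes. These are a description, since Dbp chose the sets.

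The other clock genes were described with no test, since the livers were set apart by a gene of the same loop. Of the 40 listed clock and clock output genes other than Dbp, 20 had CPM ranges that did not overlap between the 2 sets, 10 of them higher and 10 lower in low-Dbp livers. Over all 16280 genes tested, 2.61% had such ranges, 0.934% higher and 1.68% lower in low-Dbp livers. The lists were chosen with earlier results of these data known, so these shares are a description and no measure of enrichment. Without Flox 2 and Flox 3, 25 of the 40 did not overlap, against 11.7% of all genes. With each library left out in turn the count was 20 to 25 of 40, against 3.15% to 5.79% of all genes.

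**Figure D1:**
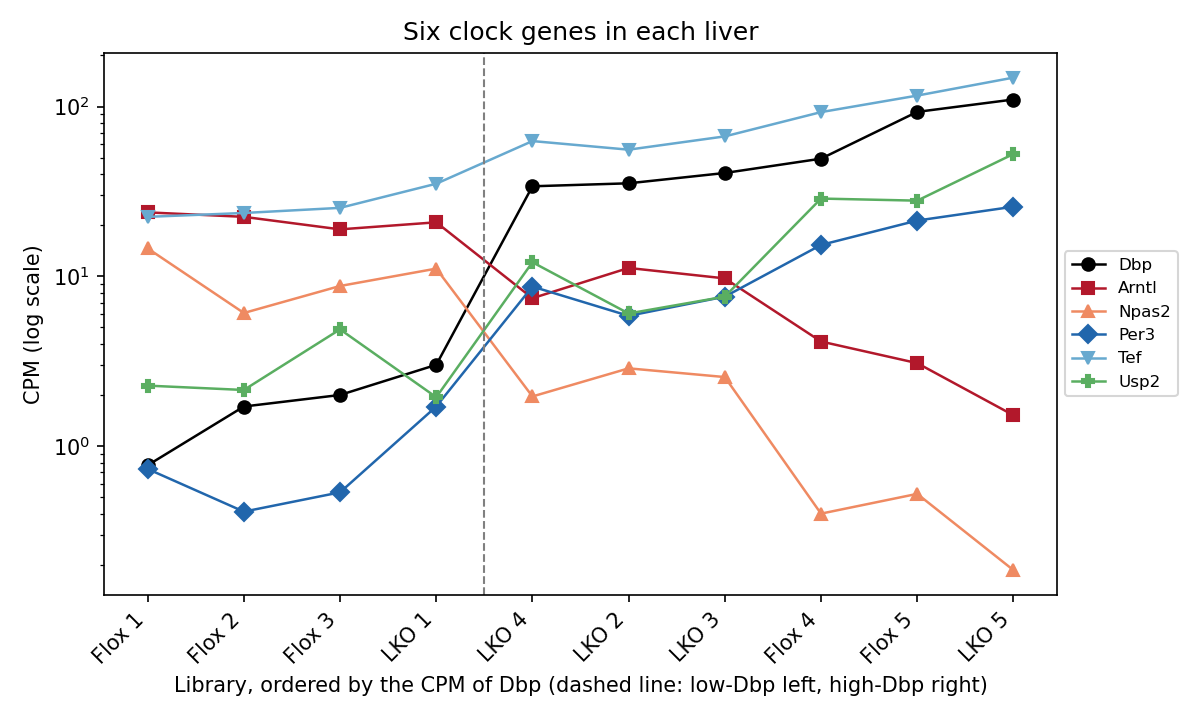
CPM (log axis) of Dbp, Arntl, Npas2, Per3, Tef and Usp2 in each of the 10 libraries, ordered by Dbp, with a dashed line between the 4 low-Dbp and the 6 high-Dbp livers. Arntl and Npas2 lie higher, and Per3 and Tef lower, in every low-Dbp liver than in any high-Dbp liver, and LKO columns 2, 3 and 4 lie between the low-Dbp livers and Flox 4, Flox 5 and LKO column 5 for each of the 6 genes.

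Among the activators, Arntl was at 23.8, 22.4, 18.9 and 20.8 CPM in Flox 1, Flox 2, Flox 3 and LKO column 1. In the high-Dbp livers Arntl ran from 1.52 CPM (LKO column 5) over a median of 5.78 to 11.2 CPM (LKO column 2). The lowest low-Dbp value was thus above every high-Dbp value, and the difference was 2.21 ± 0.54 on the log2 scale (SE of the edgeR fit with genotype as a covariate). Npas2, the partner of ARNTL in place of CLOCK, was at 14.6, 6.08, 8.77 and 11.1 CPM in the same 4 livers. Its high-Dbp values were 0.400 in Flox 4, 0.523 in Flox 5, 2.87, 2.55 and 1.96 in LKO columns 2, 3 and 4, and 0.186 CPM in LKO column 5. Clock overlapped between the sets (37.1 to 48.5 against 20.2 to 47.4 CPM).

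Among the repressors, Per3 had the largest fold difference. It was at 0.733, 0.411, 0.534 and 1.71 CPM in Flox 1, Flox 2, Flox 3 and LKO column 1. It was at 15.3 and 21.3 CPM in Flox 4 and Flox 5, and at 5.85, 7.59, 8.70 and 25.7 CPM in LKO columns 2, 3, 4 and 5. The high-Dbp mean was 16.6-fold higher. Ciart, which encodes a repressor of the ARNTL and CLOCK pair, was at 0.411 to 0.939 CPM in the low-Dbp and 1.57 to 13.5 CPM in the high-Dbp livers. Bhlhe40 and Bhlhe41, whose proteins compete for E-boxes, were also lower in every low-Dbp liver, Bhlhe40 at 31.9 to 63.4 against 90.5 to 153 CPM. Cry1 went the other way, at 11.6, 10.7, 11.9 and 10.6 CPM in the 4 low-Dbp livers against 4.04 to 6.88 CPM. Per1, Per2 and Cry2 overlapped between the sets.

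In the second loop, Nr1d2 was lower in every low-Dbp liver, at 16.9 to 24.2 against 45.7 to 60.5 CPM. Nfil3, the D-box repressor, was higher in each of them, at 54.7, 62.3, 70.0 and 39.8 CPM in Flox 1, Flox 2, Flox 3 and LKO column 1 against 10.6 to 21.0 CPM. Nr1d1 and Rora overlapped. Tef was at 22.4 to 35.1 CPM in the low-Dbp and 55.7 to 148 CPM in the high-Dbp livers, a 3.39-fold higher mean in the latter. Hlf, the remaining PAR bZIP gene, overlapped (29.5 to 36.6 against 28.6 to 51.7 CPM).

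The windows upstream of 3 clock genes whose sets did not overlap are shown because they carry the letters of the elements named above. Each stretch is from the RefSeq promoter table of GRCm38.p6, on the strand of the gene, 5′ to 3′, without bases inside a coding gene's RefSeq span or GENCODE M21 exon. Capitals mark CACGTG (the E-box) or TTATGTAA (a D-box). Per3 is at chr4:151044708-151044852, Ciart at chr3:95882258-95882478 and Cry1 at chr10:85185065-85185304, all on the minus strand.
Per3: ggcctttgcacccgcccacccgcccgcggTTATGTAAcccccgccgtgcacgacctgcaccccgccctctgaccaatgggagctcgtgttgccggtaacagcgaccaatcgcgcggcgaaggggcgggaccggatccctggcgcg
Ciart: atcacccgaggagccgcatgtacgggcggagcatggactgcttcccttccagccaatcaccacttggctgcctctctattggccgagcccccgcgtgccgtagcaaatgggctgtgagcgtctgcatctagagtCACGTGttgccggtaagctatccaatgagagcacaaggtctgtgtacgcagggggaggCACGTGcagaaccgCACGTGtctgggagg
Cry1: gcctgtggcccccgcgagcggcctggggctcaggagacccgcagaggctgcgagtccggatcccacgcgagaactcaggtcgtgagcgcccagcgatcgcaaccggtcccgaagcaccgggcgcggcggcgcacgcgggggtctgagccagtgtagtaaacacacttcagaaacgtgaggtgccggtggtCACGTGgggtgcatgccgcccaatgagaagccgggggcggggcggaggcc
Per3, lower in low-Dbp livers, has 2 D-boxes in its whole window of 250 bases, 205 and 158 bases before the start. Ciart, also lower, has 3 E-boxes, and Cry1, which was higher, has 1. Both strands were searched for CACGTG, for TTATGTAA and TTACGTAA, and for AGGTCA (the core of the RORE), and no 2 matches overlapped in the windows of the clock genes. Of 32851 promoter windows of this length, 6.02% held the E-box, 0.931% a D-box and 14.0% the RORE core. Of the 41 clock genes 32 had a window, and some had up to 3. In any of their windows 9 genes held the E-box, 2 a D-box and 10 the RORE core. These are counts by gene and the shares above are by window, so the 2 are not compared. A match is a word in the sequence and no measure of binding.

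Of the 22 output genes, 10 did not overlap. Usp2, a deubiquitinase gene and a target of the clock, was at 1.94 to 4.87 CPM in low-Dbp and 6.04 to 52.5 CPM in high-Dbp livers. Upp2, a uridine phosphorylase gene, was at 116, 25.8, 20.1 and 101 CPM in the 4 low-Dbp livers against 214 to 438 CPM. Lpin1, a phosphatidate phosphatase gene, and Klf10, a transcription factor gene, were likewise lower in each low-Dbp liver. The 6 higher in each were Lonrf3, Slc45a3, Dtx4, Ppp1r3c, Insig2 and Clpx. Clpx, which encodes the chaperone of the mitochondrial ClpXP protease, was at 229 to 267 CPM against 51.4 to 189 CPM. Wee1, Coq10b, Leo1, Noct, Elovl3, Avpr1a, Tspan4, Nampt, Herpud1, Mtss1, Gys2 and Cys1 overlapped.

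**Figure D2:**
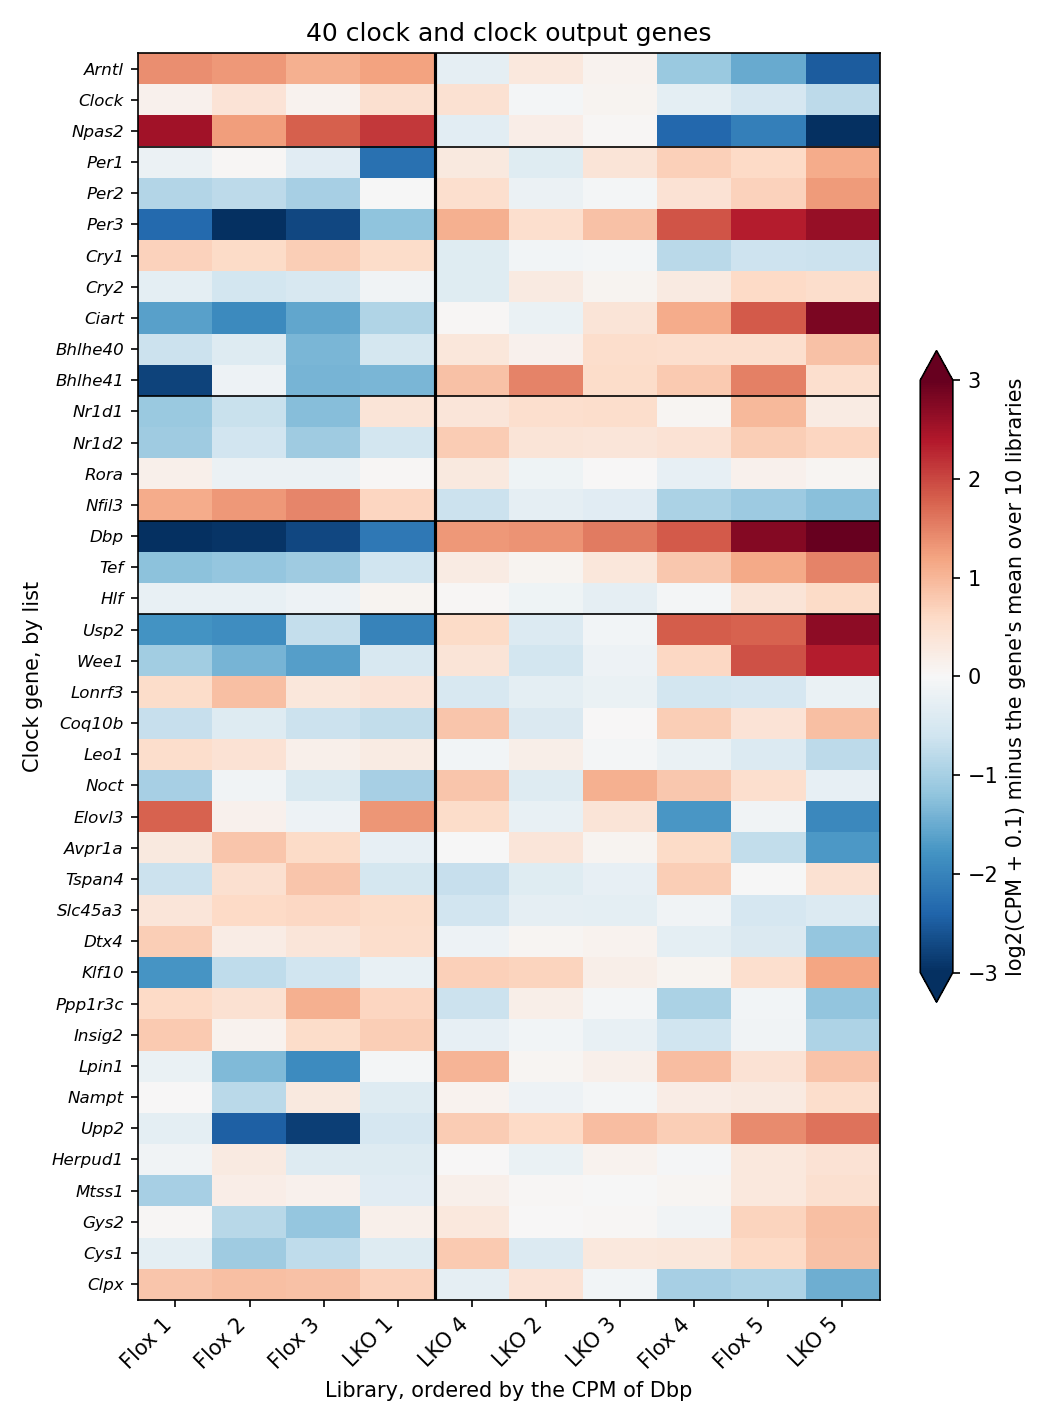
Level of 40 of the 41 listed clock and clock output genes, Dbp included (rows, separated by list) in the 10 libraries (columns, ordered by Dbp, with the line between low-Dbp and high-Dbp livers), as log2(CPM + 0.1) minus the gene's mean over the libraries, the colours ending at 3 either way. Arntl, Npas2, Nfil3 and Clpx are red on the left and blue or pale on the right, and Per3, Ciart, Dbp, Tef and Usp2 the reverse, while Rora and Hlf stay pale in all 10 libraries.

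The livers also differed within each set. LKO column 1 had Dbp, Per3 and Arntl levels of a low-Dbp liver, but Nr1d1 at 86.6 CPM against 27.4 to 41.8 CPM in Flox 1, Flox 2 and Flox 3. Its Per2 was at 11.7 against 5.85 to 6.80 CPM, and its Per1 at 3.18 against 12.1 to 15.8 CPM. Among the high-Dbp livers, LKO columns 2, 3 and 4 had Arntl at 7.43 to 11.2 CPM, whereas Flox 4, Flox 5 and LKO column 5 had it at 1.52 to 4.13 CPM. The same 3 LKO columns had Per3 at 5.85 to 8.70 CPM, and Flox 4, Flox 5 and LKO column 5 at 15.3 to 25.7 CPM. The high-Dbp set was thus not uniform. Its more extreme part held Flox 4, Flox 5 and LKO column 5, and its other livers were all LKO.

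Outside the clock lists, 3 genes passed the test between the sets, and each was higher in low-Dbp livers. The test was edgeR's quasi-likelihood test with genotype as a covariate and Benjamini-Hochberg adjustment over all 16280 genes. The 3 genes were 0.0185% of the 16239 genes outside the lists. At an unadjusted p under 0.05 there were 1101 such genes (6.78%), 450 higher and 651 lower. The lists hold 41 genes chosen with earlier results of these data known, and whether the clock also moves the 3 genes was not tested. With Dbp, whose difference the sets fixed, and 4 listed clock genes the fit's count was 8 of 16280 (0.0491%), from which nothing is read.

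Cdkn1a (ENSMUSG00000023067, chromosome 17, 29090976 to 29100727, GRCm38) encodes p21, an inhibitor of cyclin-dependent kinases. It was at 24.7 CPM in Flox 1, 19.6 in Flox 2, 37.1 in Flox 3 and 15.8 in LKO column 1. In the high-Dbp livers it was at 5.17 and 4.48 CPM in Flox 4 and Flox 5 and at 5.45, 5.68, 4.43 and 4.92 CPM in LKO columns 2, 3, 4 and 5. The low-Dbp values were spread, the high-Dbp values were close together, and the sets were far apart. Cdkn1a rose by 2.20 ± 0.23 on the log2 scale (SE, adjusted p = 0.015), with a 4.84-fold higher mean. It passed in 10 of the 11 fits that used another tool, scaling, filter, covariate or set of libraries or the design as described, the exception being Flox libraries alone (adjusted p = 0.17). It did not pass without Flox 4 (0.0801).

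Lrfn3 (ENSMUSG00000036957, chromosome 7, 30355489 to 30362772) encodes a leucine-rich repeat adhesion protein best known from synapses. It was at 17.7, 19.4, 18.7 and 21.5 CPM in Flox 1, Flox 2, Flox 3 and LKO column 1, and at 9 to 11.4 CPM with a median of 9.76 in the high-Dbp livers. Lrfn3 rose by 0.98 ± 0.11 (adjusted p = 0.0155). Fpgs (ENSMUSG00000009566, chromosome 2, 32682609 to 32704145) encodes folylpolyglutamate synthase, which retains folates in the cell. Fpgs was at 195, 196, 195 and 196 CPM in the same 4 livers and at 110 to 133 CPM with a median of 125 in the others. Fpgs rose by 0.70 ± 0.10 (adjusted p = 0.0404). Lrfn3 did not pass without Flox 4, Flox 5 or LKO column 1 (0.0607 to 0.169). Fpgs did not pass when any 1 library was left out (0.0515 to 0.349), nor without both Flox 2 and Flox 3 (0.0777). Flox libraries alone ended both calls (0.414 for Lrfn3 and 0.785 for Fpgs), and scaling by library totals ended that of Fpgs (0.0622).

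**Figure D3:**
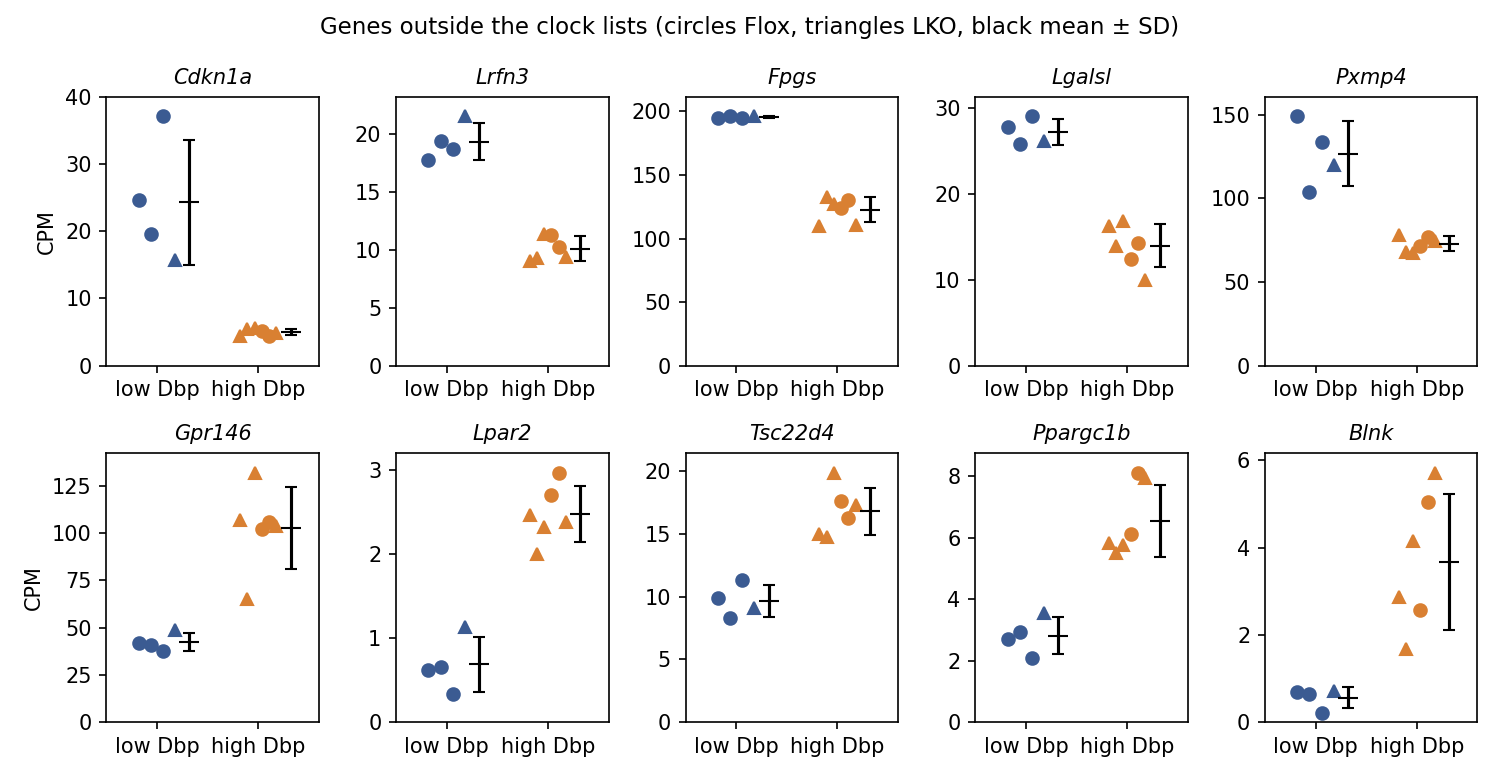
CPM (linear axes from 0) of the 10 genes outside the clock lists named by smallest p, in the 4 low-Dbp (blue) and 6 high-Dbp (orange) livers, with Flox as circles, LKO as triangles and the mean ± SD in black. Cdkn1a runs from 15.8 to 37.1 CPM on the left and from 4.43 to 5.68 CPM on the right, and the 2 sets do not overlap for any of the 10 genes, which the choice of these genes required.

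The next genes by p did not pass. Among those with higher values, Lgalsl, which encodes a galectin-like protein, was at 25.8 to 29.0 against 10 to 16.8 CPM (adjusted p = 0.0606). Pxmp4, a peroxisomal membrane protein gene, was at 104 to 149 against 67.6 to 78.3 CPM (0.0695). Among those with lower values, Gpr146, an orphan receptor gene, was at 37.4 to 48.9 against 64.9 to 132 CPM (0.0698). Lpar2, a lysophosphatidic acid receptor gene, was at 0.334 to 1.13 against 2 to 2.97 CPM (0.0975). Tsc22d4 was at 8.28 to 11.3 against 14.8 to 19.9 CPM (0.0975). Ppargc1b, a coactivator gene of mitochondrial metabolism, was at 2.09 to 3.56 against 5.49 to 8.12 CPM (0.101). Blnk, an adaptor gene of B cell receptor signalling, was at 0.200 to 0.704 against 1.68 to 5.72 CPM (0.124). Their sets did not overlap by the rule that chose them.

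Without Flox 2 and Flox 3, the 2 low-Dbp libraries left were Flox 1 and LKO column 1. Of the 17179 genes then tested outside the clock lists, 6 passed. Cdkn1a (adjusted p = 0.00176) and Lrfn3 (0.0397) were among them. Pxmp4 (0.037) was another. The other 3 are named because they passed here and not in all 10 libraries. Ppard, which encodes the fatty acid receptor PPARδ, was at 40.4, 21.5, 12.4 and 22.5 CPM in Flox 1, Flox 2, Flox 3 and LKO column 1, against 7.3 to 8.28 CPM in the high-Dbp livers. All 4 were thus above all 6, as they were for 0.934% of all genes tested in the 10 libraries. The adjusted p of Ppard was 0.13 with all libraries and 0.00176 without Flox 2 and Flox 3. Smarcd1, a chromatin remodeller subunit gene, was at 10.3, 7.62, 4.32 and 11.3 CPM against 4.38 to 5.79 CPM (0.347, then 0.037). Junb, an immediate early transcription factor gene, was at 11.5 and 13.1 CPM in Flox 1 and LKO column 1 and at 70.7 and 64.9 CPM in Flox 2 and Flox 3. The high-Dbp livers lay between them at 27.4 to 45.9 CPM (adjusted p = 0.945 with all libraries, and 0.0372 on the lower side without both).

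Groups of liver genes that the clock, feeding or stress are known to move were then counted. Of the 16 such lists, 1 had a member past the threshold, Cdkn1a among 12 glucocorticoid targets. The medians and counts below are of log2 fold changes of low-Dbp against high-Dbp livers fitted with genotype as a covariate, so a gene's fitted sign can differ from that of its mean CPM, and the median over all 16280 genes was 0.

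Among lists of daily metabolism, the 12 xenobiotic genes of the PAR bZIP factors had a median of 0.34, with 7 above 0, and of -0.02 without genotype in the fit. Alas1, the rate-limiting enzyme of haem synthesis, was at 95.6 to 234 against 148 to 653 CPM, and Cyp2c37 was at 431 to 478 against 185 to 432 CPM. The 10 bile acid synthesis genes tested had a median of 0.08, and of 0.24 without Flox 2 and Flox 3. Cyp7a1, the rate-limiting enzyme of bile acid synthesis, was at 57.7, 9.22, 4.59 and 30.6 CPM in Flox 1, Flox 2, Flox 3 and LKO column 1 and at 44.3 to 82.2 CPM in the high-Dbp livers (log2 difference -1.32 ± 0.69). Nr0b2, which encodes the corepressor SHP, was at 29.7 to 63.1 against 14.3 to 32.2 CPM. The 10 bile acid transport genes had a median of -0.29, which turned to 0.08 without Flox 2 and Flox 3. Abcg5, which exports sterols to bile, was at 23.3 to 42.7 against 46.7 to 82.5 CPM.

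Of the 19 fed-state lipogenesis and glycolysis genes 18 had a fitted fold change below 0 (median -0.54). Of 23 cholesterol synthesis genes 20 did (median -0.27). Sqle, which encodes squalene epoxidase, was at 83.0 to 144 against 113 to 179 CPM. Without Flox 2 and Flox 3 these medians were -0.02 and 0.03, and with the acute phase score of each library as a covariate they were -0.49 and -0.24. Pnpla3, a lipogenic gene, was at 0.0822 and 0.0668 CPM in Flox 2 and Flox 3, at 1.5 and 2.37 CPM in Flox 1 and LKO column 1, and at 1.75 to 6.44 CPM in high-Dbp livers. The 19 fasting genes had a median of 0.29, and of 0.43 without both libraries. Pdk4, the kinase that blocks pyruvate oxidation, was at 25.3 and 25.7 CPM in Flox 1 and LKO column 1, against 2.35 to 10.5 CPM in the high-Dbp livers, with Flox 2 and Flox 3 inside that range. The 12 insulin and FOXO genes had a median of -0.06. Foxo3 was at 32.9 to 41.7 against 45.4 to 62.1 CPM, and Irs2, an insulin receptor substrate, at 18 to 31.6 against 8.77 to 17.0 CPM, both without overlap and neither past the threshold.

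Among stress lists, all 25 acute phase genes had a fitted fold change above 0 (median 0.50). Without Flox 2 and Flox 3, 22 of 25 were below 0 (median -0.70). The 12 glucocorticoid targets had a median of 0.45, and of 0.09 without both libraries. The 17 unfolded protein response genes were at 0.34 and then -0.07. The 17 heat shock genes were at 0.16 and then 0.03, the 18 ribosome biogenesis genes at 0.10 and then 0.03, and the 2 cold-inducible genes Rbm3 and Cirbp at -0.38 and then -0.05. The acute phase score was the mean log2 CPM of the 25 acute phase genes. With this score as a covariate, the acute phase median was 0.12. That value was drawn towards 0 by construction, since the score is made of the same genes. The medians were 0.26 for glucocorticoid targets, 0.17 for the unfolded protein response and 0.15 for heat shock. They were 0.07 for ribosome biogenesis and -0.35 for the cold-inducible genes.

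The medians of 3 further lists lay below 0 with and without Flox 2 and Flox 3. Of 13 immediate early genes all were below 0 in the fit (median -0.43), and without both libraries 12 were (-0.55). Without genotype in the fit 2 of the 13 were above 0 (median -0.34). Of 15 cell cycle genes 12 were below 0 (-0.65), and then 14 (-0.89), while 11 were without genotype in the fit (median -0.4). Ccnd1, which encodes cyclin D1, was at 5.61 to 10.1 against 11.1 to 22.0 CPM and did not overlap, without passing. Of 33 interferon-stimulated genes 21 were below 0 (-0.28), and then 32 (-0.75), but without genotype in the fit 14 were, and the median turned to 0.14.

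**Figure D4:**
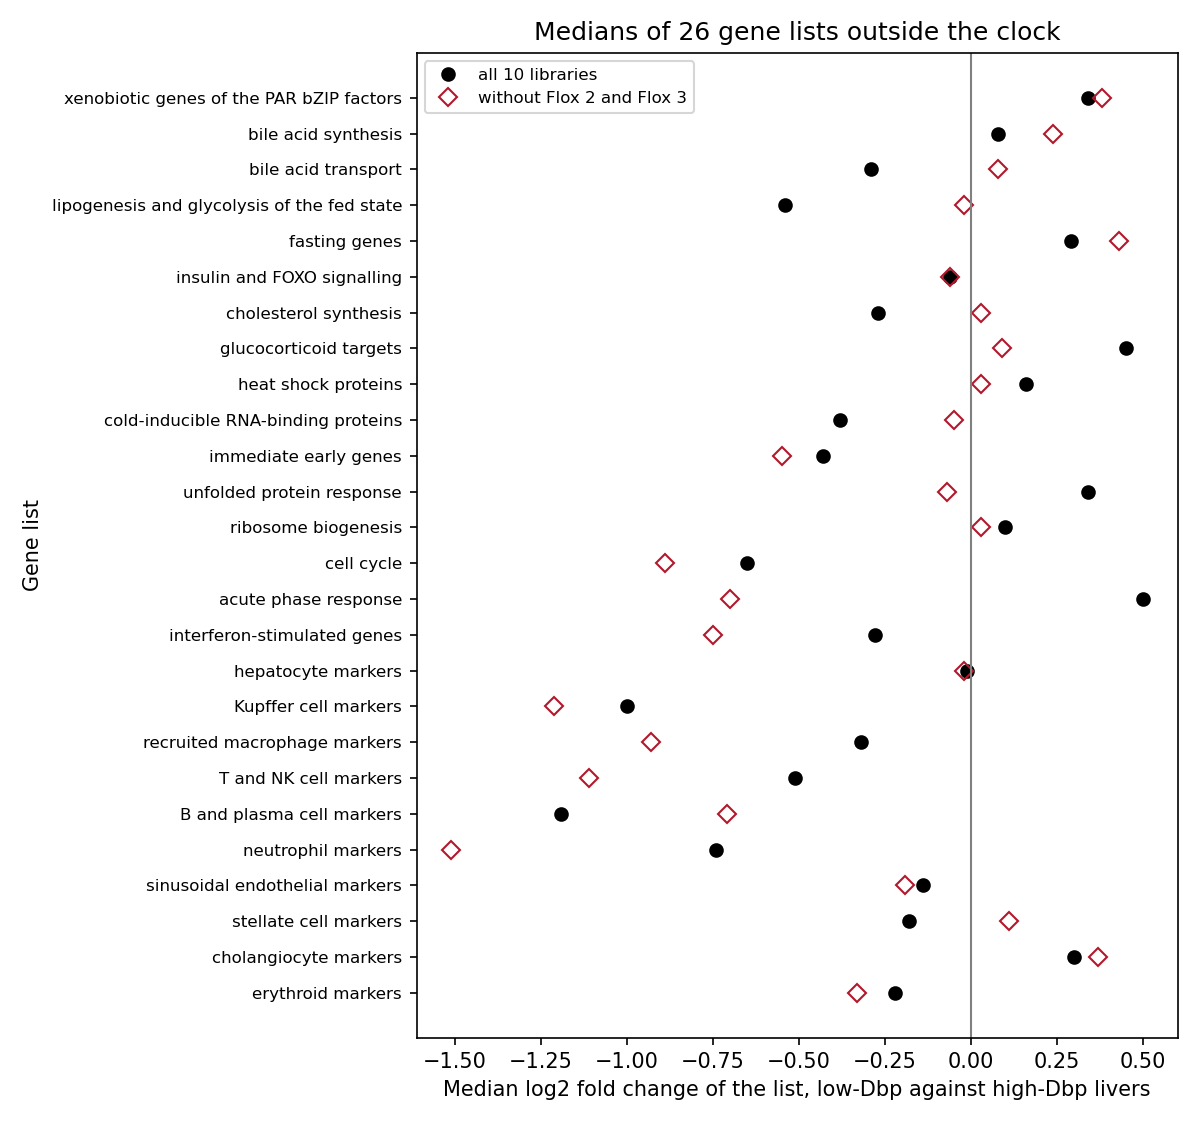
Median log2 fold change of low-Dbp against high-Dbp livers for each of 16 gene lists and 10 cell type marker lists, from all 10 libraries (filled circles) and without Flox 2 and Flox 3 (open diamonds), with a line at 0, which was the median over all genes. The acute phase list moves from 0.50 to -0.70, fed-state lipogenesis from -0.54 to -0.02, and Kupffer cell markers stay at or below -1.

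Markers of Kupffer cells and of B and plasma cells had medians below 0 in each of the 5 fits in which lists were counted. The same held for markers of recruited macrophages, sinusoidal endothelium and erythroid cells. Medians of T and NK cell and neutrophil markers turned when genotype was not in the fit. No marker passed the threshold in the fit with genotype and all libraries. In whole liver, fewer cells of a type and less RNA per cell cannot be told apart. The 16 hepatocyte markers had a median of -0.01, and of -0.14 without genotype in the fit. All 12 Kupffer cell markers were below 0 in the fit (median -1, and -1.21 without Flox 2 and Flox 3). Without genotype 11 were (median -0.58), and Marco, a scavenger receptor gene, had a mean of 52.4 CPM in low-Dbp against 46.3 CPM in high-Dbp livers. Their summed level was 89.9 to 412 CPM in low-Dbp and 146 to 807 CPM in high-Dbp livers, so the sets overlapped. All 7 B and plasma cell markers tested were below 0 (median -1.19, then -0.71, and -1.16 without genotype), and their sum was 61 to 122 against 144 to 333 CPM, without overlap. Igkc, the kappa light chain, was at 34.7, 63.4, 35.6 and 41.7 CPM in the low-Dbp livers and at 62.4 to 175 CPM in the others.

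Of the remaining marker lists 1 had a median above 0. The medians were -0.51 for T and NK cells, -0.74 for neutrophils, -0.32 for recruited macrophages, -0.14 for sinusoidal endothelium, -0.18 for stellate cells and -0.22 for erythroid cells, against 0.30 for cholangiocytes. Without Flox 2 and Flox 3 the first 3 were -1.11, -1.51 and -0.93, and stellate cell markers were at 0.11. Without genotype in the fit they were 0.22 for T and NK cells (7 of 12 above 0), 0.03 for neutrophils and -0.10 for recruited macrophages. Lck, the T cell receptor kinase gene, had a mean of 1.1 CPM in low-Dbp against 0.628 CPM in high-Dbp livers. T and NK markers summed to 2.67 to 15.2 against 5.81 to 14.0 CPM, neutrophil markers to 2.37 to 20.2 against 1.49 to 26.1 CPM, and recruited macrophage markers to 22.9 to 68.5 against 36.6 to 55.5 CPM. No listed marker was at 0 in all 10 libraries. Blnk and the immune lists above lie beside these markers, whose part in those values was not tested.

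The labelled genotypes were compared with the Dbp set in the fit. No gene passed between LKO and Flox (0 of 16280, 0%, smallest adjusted p = 0.89), and 740 had an unadjusted p under 0.05. Without the Dbp set in the fit no gene passed either (smallest adjusted p = 0.653), and 1224 had an unadjusted p under 0.05. DESeq2 called 1 gene with the Dbp set in the fit.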

How the data were processed

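Liver RNA selected with oligo-dT, per the labels' protocols, was sequenced in 10 libraries. The deposited values are raw counts of reads per Ensembl gene. STAR 2.5.1a, featureCounts 1.4.6-p5, Subread, bcl2fastq and the build GRCm38 are named in the submitters' processing notes. The counting's strand setting and annotation were not known here, so overlapping genes and near-identical families (serum amyloid, immunoglobulin) are uncertain. Of 55774 lines, 287 repeated identifiers were dropped. No 2 libraries agreed within sampling noise (mean chi-square per gene 37.0 to 687 over 45 pairs). A count of 0 allows 3 counts, or 0.0546 to 0.0692 CPM, for counting error only.

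Genes were filtered by filterByExpr on the Dbp set, scaled by TMM and fitted with edgeR 4.0.16 (robust quasi-likelihood, R 4.3.3) on genotype and Dbp set, with Benjamini-Hochberg adjustment and a threshold of 0.05. CPM use library totals. Alternatives used DESeq2 1.42.0 and limma-voom 3.58.1. The members and lists were chosen with earlier results of these data known. Named genes outside the clock lists were the 5 higher and 5 lower with the smallest p, a mean of at least 1 CPM and no overlap, since fewer than 10 passed. In each other list they were up to 4 members past the threshold, or up to 2 by smallest p. Some genes named by these rules are left out of the text and figures.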

Additional observations from a re-analysis of the deposited data

Results flagged for a closer look

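Values were examined within the 4 low-Dbp and within the 6 high-Dbp livers. Of 158 such groups of values over 79 genes, 6 (3.8%) had 1 library farther from the rest than Dixon's 95% limit. By chance about 1 in 20 would. Among the clock genes, Per2 was at 11.7 CPM in LKO column 1, against at most 6.80 in the other low-Dbp livers. Usp2 was at 4.87 CPM in Flox 3, against at most 2.27 in the other low-Dbp livers. Irs2 stood apart in both sets, at 18 CPM in LKO column 1, against at least 29.6 in the other low-Dbp livers, and at 8.77 CPM in Flox 4, against at least 14.8 in the other high-Dbp livers. Blnk was at 0.200 CPM in Flox 3, against at least 0.637 in the other low-Dbp livers. Fos, an immediate early gene, was at 1.15 CPM in Flox 2, against at most 0.489 in the other low-Dbp livers.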

How the results depend on the processing

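The count of genes past the threshold depended on the fit, and the cause was not tested. Against 8 genes in all (Dbp and 4 clock genes included, so a description) and 3 outside the clock lists, DESeq2 called 141 and 119, limma-voom 14 and 10, no filter on low counts 40 and 37, the acute phase score as a covariate 29 and 24, no genotype covariate 27 and 20, and log2 Dbp in place of the sets 34 and 21. Library totals called 4 in all, and without Flox 2 and Flox 3 there were 6 outside the lists. Flox libraries alone gave 3 in all and 0 outside the lists with edgeR (841 with an unadjusted p under 0.05). Leaving out 1 library gave 0 to 10 in all and 0 to 5 outside the lists. The counts were 0 and 0 without Flox 4 (629 and 599 at an unadjusted p under 0.05), and 2 and 1 without LKO column 1. DESeq2 and limma-voom each called the 3 genes Cdkn1a, Lrfn3 and Fpgs. Between genotypes, DESeq2 called 1 gene and no filter 4, and the other settings, each library left out included, called 0. Direction was followed for the clock genes and the genes chosen by the naming rules, not for others such as Marco, Lck or Junb. Outside the clock lists, no gene chosen by those rules turned in direction under the settings run. Rora (0.02) and Tspan4 (-0.14), close to 0, did so in the fits without Flox 1 (-0.06 and 0.02) and without genotype (-0.05 and 0.13), among others. List medians turned too: without Flox 2 and Flox 3 those of the acute phase, the unfolded protein response, bile acid transport, cholesterol synthesis and stellate cells, without genotype those of the second clock loop, the xenobiotic genes, interferon-stimulated genes, T and NK cells and neutrophils, and with the acute phase score that of hepatocytes (0.01). The log2 difference of Dbp between genotypes was 1.28 to 2.96 with 1 library left out. Of the clock genes, Per3 (-4.97), Nr1d1 (-1.54) and Nfil3 (2.36) moved by more than the replicate spread without LKO column 1. Alternatives for the clock gene count were chosen after seeing the data. No paired analysis was possible because the title numbers 1 to 5 and 6 to 10 share none between genotypes, and the sets have no numbers of their own.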
